A study of Solanum lycopersicum with 4 samples.

Results

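TAS14 and LEA14 encode late embryogenesis abundant (LEA) proteins of tomato, and their transcripts were followed in the fruit wall (pericarp) at breaker+7 (B+7, 7 days after the first colour change) and at mature green (MG), the full-grown fruit before that change, in AtJUB1-OX plants and their wild type. Probe sets were taken whose symbol or synonym in the platform annotation was TAS14 or LEA14. A probe set is the group of short oligonucleotides that reads 1 transcript on an Affymetrix array. The rule found 2 of the 10101 probe sets left after the 108 controls were set aside, 1 for TAS14 (Les.3593.1.S1_at) and 1 for LEA14 (Les.3759.1.S1_at), so each gene was read by a single probe set. The annotation gives Lemmi9 as another name of LEA14. In all, 909 probe sets for 803 genes carried a gene name.

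AtJUB1-OX plants express the Arabidopsis NAC transcription factor JUNGBRUNNEN1 fused to GFP from the 35S promoter of cauliflower mosaic virus, which is active in most plant tissues and not in the fruit alone. The labels write the genotype 35:AtJUB1-GFP and the variety of all plants as v. money maker. The study ties the fruit work to a single transgenic line. There were 4 GeneChip Tomato Genome Arrays, 1 each for AtJUB1-OX at B+7, AtJUB1-OX at MG, wild type at B+7 and wild type at MG. With 1 array per condition there were no replicates, so no difference below has a test, a p-value or an error between fruits.

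LEA proteins were first found in seeds late in their development, when the embryo dries. Most are very hydrophilic and take on little fixed structure in solution, and they are thought to shield membranes and other proteins when cells lose water. Dehydrins, to which TAS14 belongs, are a LEA group marked by lysine-rich stretches, and TAS14 is known as a tomato gene whose transcript accumulates under salt, osmotic stress and abscisic acid (ABA). LEA14 proteins are atypical members, known from Arabidopsis to fold into a compact shape and less hydrophilic than the rest. Lemmi9 was first described as a tomato transcript of root galls formed by root-knot nematodes. AtJUB1 is known in Arabidopsis for its part in tolerance of abiotic stress.

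The labelled stages were borne out by their markers. All 6 ripening genes measured, of 7 sought, were at least 1.5-fold higher at B+7 than at MG in both genotypes, by log2 differences between 1.82 and 7.91 in AtJUB1-OX and between 0.82 and 10.18 in wild type. All 5 chloroplast genes measured, of 6 sought, were lower at B+7 in both. Of 4 genes sought for seeds, where LEA transcripts are usually abundant, only the mannanase gene MAN2 was measured, at log2 signals between 3.40 and 3.70 on the 4 arrays. A single dim gene cannot show whether the samples held seed tissue, so that was left unchecked. The medians of the arrays lay between 9.69 and 9.74, and the values are log2 signals as deposited.

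TAS14 was the transcript with the most negative genotype difference on the array at B+7, where AtJUB1-OX fruit held 33.5-fold less signal than wild type fruit. Its log2 signal was 5.80 in AtJUB1-OX at B+7 and 7.56 in AtJUB1-OX at MG, against 10.87 in wild type at B+7 and 8.38 in wild type at MG. The wild type array at B+7 was thus the brightest for TAS14 and the AtJUB1-OX array at the same stage the dimmest, with both MG arrays in between. In that order, neighbouring arrays were 2.48, 0.82 and 1.76 log2 units apart. Less RNA per cell and fewer cells that hold the transcript cannot be told apart in such bulk pericarp samples.

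**Figure D1:**
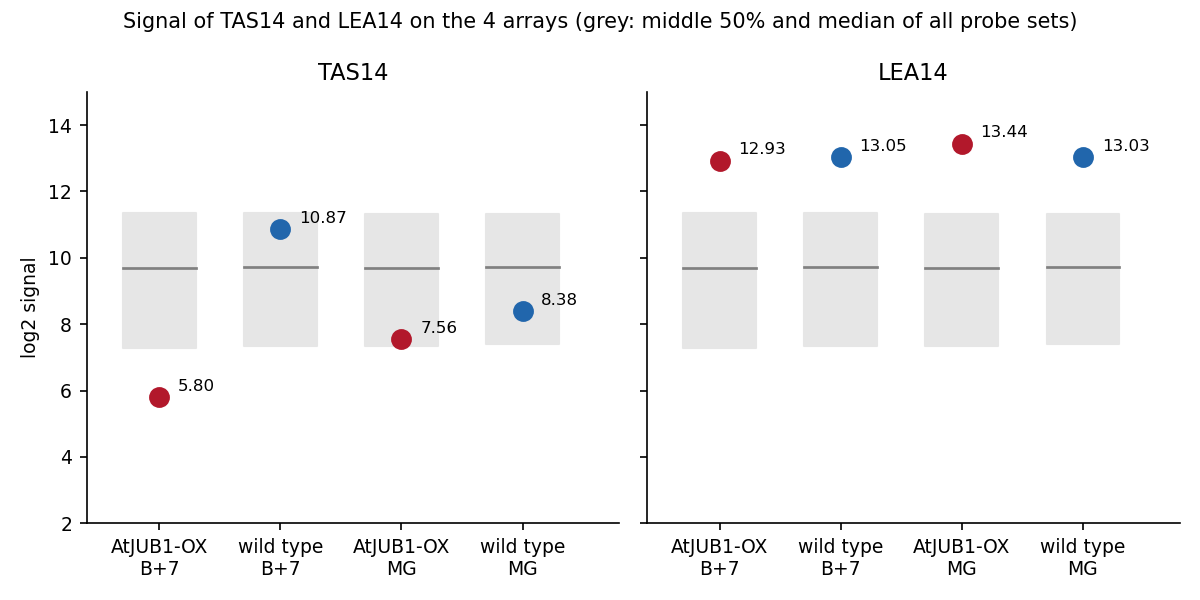
Deposited log2 signal of TAS14 (left) and LEA14 (right) on the 4 arrays, 1 point per array, red for AtJUB1-OX and blue for wild type. Grey boxes span the lower to the upper quartile of all probe sets on that array and the grey line is their median. TAS14 lies between 5.80 and 10.87 and leaves the box only in AtJUB1-OX at B+7, whereas LEA14 stays between 12.93 and 13.44, above every box.

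These signals also set how well each value was measured. TAS14 was brighter than 16.2% of all probe sets in AtJUB1-OX at B+7 and 26.9% in AtJUB1-OX at MG, against 67.0% in wild type at B+7 and 33.7% in wild type at MG. The AtJUB1-OX value at B+7 therefore lies below the 25th percentile of that array, and the 33.5-fold figure rests on it. With every value below the 25th percentile (log2 7.34) raised to that level, the difference at B+7 was -3.53. No detection call was used here.

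At B+7 the TAS14 difference, AtJUB1-OX minus wild type, was -5.07 on the log2 scale, against a median of 0.00 over all probe sets. Of the 10101 probe sets, 6.13% were at least 1.5-fold lower in AtJUB1-OX at this stage and 3.53% were at least 1.5-fold higher. No probe set besides TAS14 was as low, and 1 other, which was higher in AtJUB1-OX, had a difference of as large a size. Within 0.5 log2 units of the mean signal of TAS14 there were 1007 probe sets, of which 14.2% passed 1.5-fold in either direction.

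At MG the TAS14 difference between AtJUB1-OX and wild type was smaller, at -0.82 or 1.77-fold lower. At this stage 6.74% of all probe sets were at least 1.5-fold lower in AtJUB1-OX and 6.67% were at least 1.5-fold higher. A difference as low as that of TAS14 or lower was found for 337 probe sets, TAS14 included, and among the 1007 probe sets of similar signal 93, again with TAS14, differed by as much in either direction. The balance of probe sets higher and lower at MG depended on scaling, with 674 higher and 681 lower as deposited, but 838 higher and 501 lower once the trend with signal was removed by loess. TAS14 itself was -0.68 after loess.

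Stage markers differed between the genotypes at MG. The ethylene-responsive ripening gene E8 reached 6.95 (log2) in AtJUB1-OX at MG, against 12.23 in wild type at MG, whereas PG2, which encodes the pectin-degrading polygalacturonase, had 6.32 in AtJUB1-OX and 3.98 in wild type. RIN, a MADS-box regulator of ripening, had 10.56 in AtJUB1-OX, against 11.39 in wild type. Over all 6 ripening markers AtJUB1-OX minus wild type at MG ran from -5.29 to 2.33, with 2 higher in AtJUB1-OX (PG2, and ACS2 by 1.15) and 4 lower. Both PG2 values at MG were dim, below the floor of log2 7.34, as was the AtJUB1-OX value of E8. All 5 chloroplast markers were lower in AtJUB1-OX at MG, by log2 differences between -1.80 and -0.61, as TAS14 was. The -1.80 was that of CAB5, whose values at MG (5.53 in AtJUB1-OX and 7.33 in wild type) were also below that floor. The part of ripening stage in the TAS14 difference at MG was not tested. At B+7, where the TAS14 difference was -5.07, the 6 ripening markers differed between the genotypes by -0.09 to 0.34 and the 5 chloroplast markers by -0.85 to 0.33, and the part of stage in the TAS14 value was not tested there either.

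**Figure D2:**
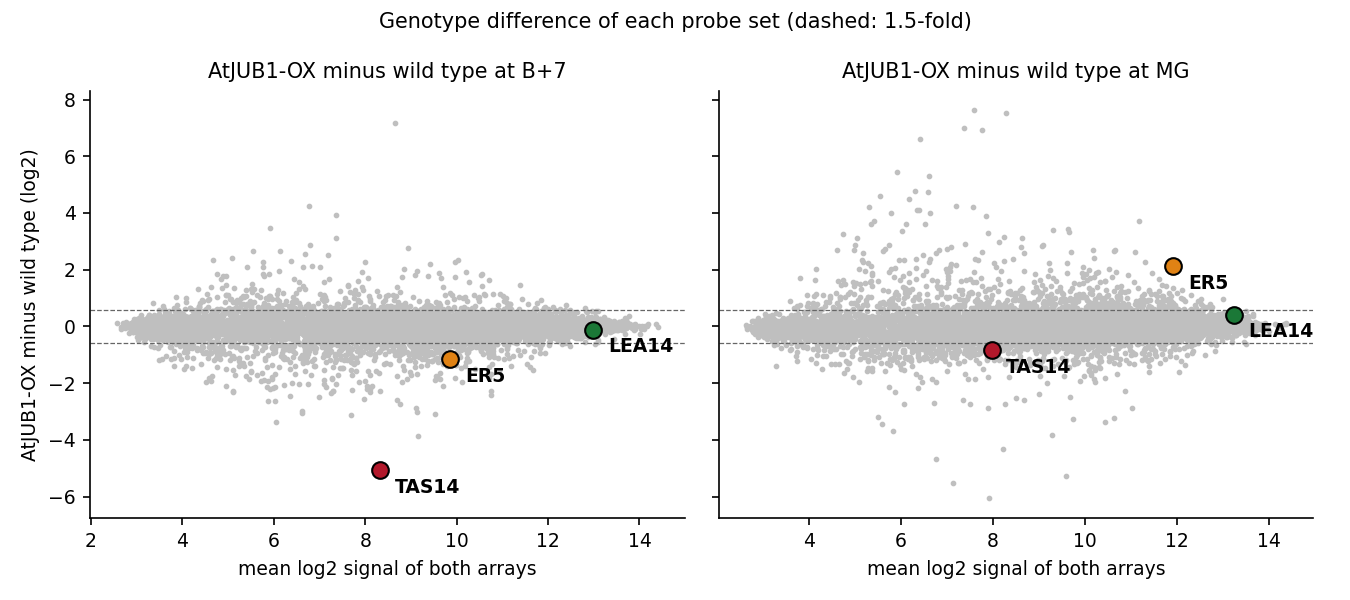
Log2 difference AtJUB1-OX minus wild type (vertical axis) against the mean log2 signal of both arrays (horizontal axis) at B+7 (left) and MG (right), 1 grey point per probe set, with dashed lines at 1.5-fold. At B+7 TAS14 (red, -5.07) is the lowest point and LEA14 (green, -0.11) lies inside the dashed lines. At MG TAS14 is at -0.82, LEA14 at 0.42 and ER5 (orange), the gene next to LEA14, at 2.13.

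Between the stages TAS14 differed in opposite directions in the genotypes. In AtJUB1-OX its B+7 minus MG difference was -1.76 on the log2 scale (3.39-fold lower), whereas in wild type it was 2.48 log2 units (5.59-fold) higher at the later stage. The AtJUB1-OX comparison and the wild type comparison share no array. Each does share its B+7 array with the genotype difference at B+7 and its MG array with that at MG. The TAS14 differences are therefore not independent of each other. Many transcripts differed between the stages. In AtJUB1-OX 16.8% of all probe sets were at least 1.5-fold lower at B+7 and 19.1% at least 1.5-fold higher, and in wild type 14.2% were lower and 13.9% higher. In AtJUB1-OX the balance depended on scaling, with 1933 probe sets higher and 1699 lower as deposited, against 1285 higher and 2041 lower after loess.

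Both of the AtJUB1-OX values for TAS14 were dim. With the floor at the 25th percentile the ripening difference in AtJUB1-OX shrank to -0.22, which is inside 1.5-fold, so the lower signal at B+7 in AtJUB1-OX rests on a dim value. Among the 1007 probe sets of similar mean signal, 54.9% passed 1.5-fold between the stages in AtJUB1-OX, and 126, TAS14 included, differed by at least as much. The higher signal at B+7 in wild type placed TAS14 among the 133 probe sets, itself included, that were as high or higher, and it kept values between 2.41 and 2.51 when arrays were centred, quantile normalized or freed of the signal trend.

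Set against each other, AtJUB1-OX minus wild type, these ripening changes of TAS14 differed by -4.24, against a median of 0.05 over all probe sets. As low a value or lower was found for 18 of the 10101 probe sets, TAS14 included, and with the floor the value was -2.71. At least 1.5-fold higher at B+7 in wild type and at least 1.5-fold lower in AtJUB1-OX were 52 probe sets, or 0.515% of all, of which 12 carried a gene name and 11 had a mean signal above the median. In these 52 the same difference of changes lay between -7.14 and -1.28, with a median of -2.70, and TAS14 had the 6th most negative. The 52 were counted on the values as deposited. With the floor TAS14 would not be among them, since its change in AtJUB1-OX was then -0.22. The opposite pattern, lower in wild type and higher in AtJUB1-OX, was met by 24.

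**Figure D3:**
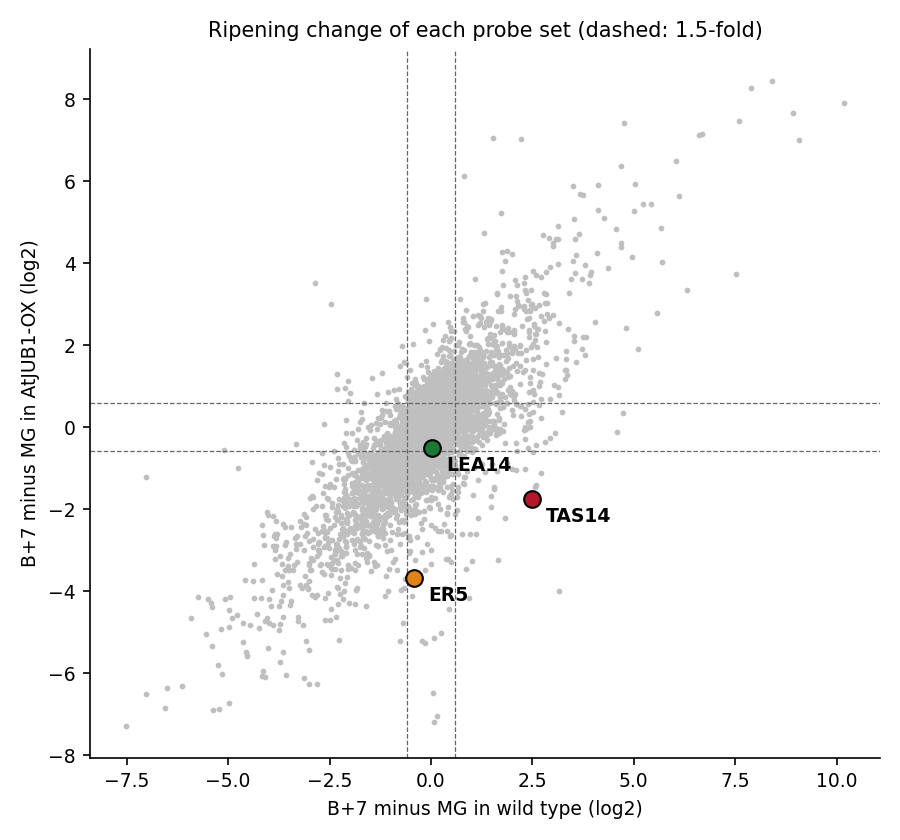
Log2 change B+7 minus MG in AtJUB1-OX (vertical axis) against the same change in wild type (horizontal axis), 1 grey point per probe set, with dashed lines at 1.5-fold. TAS14 (red) lies in the lower right field, at -1.76 in AtJUB1-OX and 2.48 in wild type, as 1 of 52 probe sets there. With the floor at the 25th percentile its change in AtJUB1-OX was -0.22, outside that field. LEA14 (green) is near the centre and ER5 (orange) is at -3.69 in AtJUB1-OX.

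A measure of technical spread came from the 82 genes that were read by several probe sets, 188 in all. Around their gene's mean, the probe sets had a pooled SD of 0.26 (n = 188) for the genotype difference at B+7 and again at MG, and of 0.74 and 0.61 for the ripening change in AtJUB1-OX and in wild type. Where the gene was dimmer than the median, as TAS14 was on average, the SD was 0.32 at B+7 and 0.28 at MG (41 genes), and 0.83 in AtJUB1-OX and 0.72 in wild type for ripening. The TAS14 genotype difference was 19.9 times the SD over all such genes at B+7 and 3.23 times at MG, and its ripening change was 2.37 times in AtJUB1-OX and 4.07 times in wild type. Against the larger SD of the dimmer genes each of these ratios would be smaller. How much fruits and plants of 1 genotype vary is no part of this spread, since 1 array per condition cannot give that.

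LEA14 held nearly the same signal in all samples. Its log2 signal was 12.93 in AtJUB1-OX at B+7 and 13.44 in AtJUB1-OX at MG, against 13.05 in wild type at B+7 and 13.03 in wild type at MG. The AtJUB1-OX array at MG was the brightest, 0.40 above wild type at B+7, and the other neighbours in the order lay 0.02 and 0.09 apart. LEA14 was brighter than 95.6% to 98.8% of the probe sets on each array, and over the 4 arrays its signals had a range of 0.51, against 5.07 for TAS14.

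None of the LEA14 differences reached 1.5-fold. AtJUB1-OX minus wild type was -0.11 at B+7 and 0.42 at MG, the second being 1.33-fold higher, and B+7 minus MG was -0.51 (1.42-fold lower) in AtJUB1-OX and 0.02 in wild type. Bright probe sets vary less, and the LEA14 differences can be set against the 639 probe sets within 0.5 log2 units of its mean. Of these, 2.66% passed 1.5-fold between the genotypes at MG, and 38 differed by as much as LEA14, itself included. In AtJUB1-OX 9.55% passed it between the stages, and 81, itself included, differed by as much. Among genes read by several bright probe sets (35 genes, 76 probe sets) the SD between probe sets was 0.098 at B+7 and 0.16 at MG for the genotype difference, and 0.27 in AtJUB1-OX and 0.24 in wild type for ripening. By size alone, the LEA14 value of 0.42 at MG was larger than this spread and that of -0.11 at B+7 was about as large.

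RNA quality controls differed between the stages in both genotypes. Between the genotypes the 3' and 5' readings differed mainly at MG and the ribosomal RNA controls mainly at B+7. For each of 4 control transcripts, the excess of the 3' over the 5' reading was greater in AtJUB1-OX at MG, by 0.13 to 0.53 over wild type, while at B+7 it differed by -0.10 to 0.04. Among the ribosomal RNA controls at B+7, 25S was higher in AtJUB1-OX by 1.20 and 17S by 0.48. At MG AtJUB1-OX minus wild type was -0.13 for 25S and -0.06 for 17S. Between the stages, B+7 minus MG, the 3' excess differed by -0.95 to -0.05 in AtJUB1-OX and by -0.46 to 0.08 in wild type. The same change was 1.76 for 25S and 1.39 for 17S in AtJUB1-OX, where that of TAS14 was -1.76, and 0.44 for 25S and 0.84 for 17S in wild type, where that of TAS14 was 2.48. For the bacterial spike-in control BioB the change was 0.25 to 0.37 in AtJUB1-OX and 0.28 to 0.35 in wild type. The part of all these controls in the TAS14 and LEA14 values was not tested. Under 4 alternatives (each array centred on its median, quantile normalization, loess, and the floor) LEA14 stayed inside 1.5-fold in all 4 comparisons.

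The only sequences tied by name to either gene in the sources used here were a primer pair that the study designed for quantitative RT-PCR, labelled LEA14 with the tomato locus Solyc01g095140. They are shown because they bear on which gene that name means. The forward primer has 24 bases, the reverse primer 22, both 5′ to 3′, and G and C make up 50% and 54.5% of them.

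LEA14 forward primer: actctgttcctgtacccatcatgc

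LEA14 reverse primer: taaccctgccggagcatttgag

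No table used here pairs this locus with the LEA14 probe set. In the RefSeq gene table (assembly SLM_r2.1) LEA14 lies on chromosome 1 with ER5 as its immediate neighbour on one side, and ER5 encodes another LEA-like protein, known from ethylene-treated tomato fruit. The locus name places the amplified gene on chromosome 1 as well, which does not settle whether the primers read LEA14 or ER5. TAS14 lies on chromosome 2, and none of the 3 genes on either side of it had a named probe set.

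ER5, the gene beside LEA14, did not share its steady signal. Its log2 signal was 9.29 in AtJUB1-OX at B+7 and 12.98 in AtJUB1-OX at MG, against 10.44 in wild type at B+7 and 10.85 in wild type at MG. The AtJUB1-OX arrays were the lowest and the highest. AtJUB1-OX minus wild type was -1.15 at B+7 and 2.13 at MG, and B+7 minus MG was -3.69 in AtJUB1-OX and -0.42 in wild type. TAS14 and ER5 were thus both more than 1.5-fold lower at B+7 in AtJUB1-OX than in wild type, with LEA14 inside 1.5-fold, while at MG TAS14 was lower and ER5 higher in AtJUB1-OX. TAS14, LEA14 and ER5 were the LEA genes found on the array by the 16 symbols sought for this family. LOC778266, next but one to LEA14 on the other side, had 2 probe sets, with genotype differences of -0.23 and -0.07 at B+7 and of 0.96 and 0.73 at MG. Both probe sets were dim on every array, between 5.30 and 7.09, below the floor of log2 7.34.

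Few transcripts matched TAS14 across the arrays in both the pattern and the size of its changes. Likeness was measured as the Euclidean distance between the 4 log2 signals of 2 probe sets after each one's mean was subtracted, over 4 arrays that differ in genotype and stage and are not replicates. The signals were not scaled, so a transcript with the same pattern but smaller changes also lies far from TAS14. Among the 363 named genes above the median signal the nearest to TAS14 were Xegip, which encodes an inhibitor of fungal xyloglucanases (distance 3.11), the beta-galactosidase gene TBG5 (3.19), ACO6 (3.20), the hydroperoxide lyase gene HPL (3.22) and TPSI1, a gene of phosphate starvation (3.28). A flat profile would lie at 3.65, so even the nearest was only slightly closer to TAS14 than no change at all. Xegip, for example, had 11.44 in AtJUB1-OX at B+7 and 11.33 in AtJUB1-OX at MG, against 12.19 in wild type at B+7 and 11.30 in wild type at MG. It was likewise highest in wild type at B+7, but its lowest array was wild type at MG.

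Over all 10100 other probe sets, 0 lay within a distance of 1 from TAS14 and 4 within 2. The nearest was that of GLB2, a non-symbiotic haemoglobin gene named here after its values were seen, at 1.64. GLB2 was dim, with log2 signals of 5.08 in AtJUB1-OX at B+7 and 5.48 in AtJUB1-OX at MG, against 8.15 in wild type at B+7 and 7.45 in wild type at MG. Both AtJUB1-OX arrays thus lay below both wild type arrays for GLB2, as they did for TAS14.

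For LEA14, with its small changes, near neighbours were many. A flat profile lay at a distance of 0.39, and 7615 of the other 10100 probe sets were within 1. The nearest of 362 named genes above the median signal were the phospholipase D gene PLDa1 (0.067), the sucrose transporter gene SUT2 (0.090), the ethylene-signalling gene EIL1 (0.12), copz1 (0.15), which encodes a coat subunit of transport vesicles, and the small GTPase gene Rab1C (0.16). PLDa1 had 12.46 in AtJUB1-OX at B+7 and 12.90 in AtJUB1-OX at MG, against 12.58 in wild type at B+7 and 12.49 in wild type at MG. Each of these 5 genes was highest in AtJUB1-OX at MG and lowest in AtJUB1-OX at B+7, as LEA14 was.

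**Figure D4:**
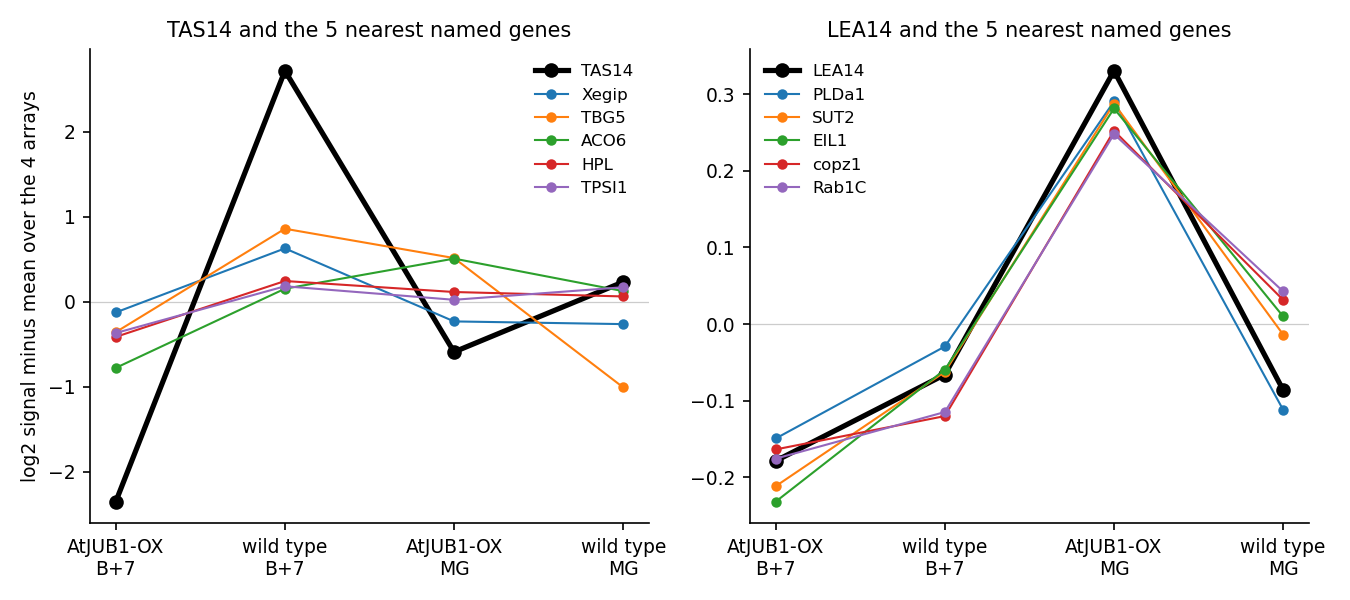
Log2 signal minus the gene's own mean over the 4 arrays (vertical axis) on each array (horizontal axis) for TAS14 (left, black) and LEA14 (right, black) with the 5 named genes nearest to each in colour, joined by lines to follow a gene. The vertical scales differ: TAS14 spans 5.07 log2 units and its nearest genes far less, whereas LEA14 spans 0.51 and its nearest genes overlie it.

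TAS14 is induced by water loss, salt and ABA, so the other genes of those responses were set beside it. Abscisic acid is made from carotenoids through zeaxanthin epoxidase (ZEP), 9-cis-epoxycarotenoid dioxygenase (NCED1) and aldehyde oxidase (AO1), the last of which needs the sulfurase encoded by FLACCA, and it acts on stress genes through AREB factors, while DREB and CBF factors act in drought and cold. Of 29 such genes measured besides TAS14 and LEA14, 0 were at least 1.5-fold higher and 5 at least 1.5-fold lower in AtJUB1-OX at B+7, with differences from -1.19 to 0.36 and a median of -0.13, against 0.00 over all probe sets, of which 3.53% were higher and 6.13% lower. The TAS14 value of -5.07 lay far below that range. At MG 9 were higher and 4 lower, with differences from -1.34 to 2.86 and a median of 0.15, against -0.05 over all probe sets, of which 6.67% were higher and 6.74% lower. With the floor the counts at MG were 6 higher and 3 lower.

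Among 6 genes of ABA synthesis and signalling, 2 were past 1.5-fold at B+7, beside 3.53% of all probe sets higher and 6.13% lower. Both were lower in AtJUB1-OX, AO1 (-0.62) and ZEP (-0.63). NCED1, which encodes the step that usually limits the rate, differed by 0.05 at B+7 and 0.61 at MG, and FLACCA by -0.22 at B+7 and 0.20 at MG. AREB1, named here outside the rule for its role upstream of dehydrins, differed by -0.33 at B+7 and 0.11 at MG, at a signal below the median. The levels of AO1 were 10.58 in AtJUB1-OX at B+7 and 9.69 in AtJUB1-OX at MG, against 11.20 in wild type at B+7 and 9.20 in wild type at MG. AO1 was therefore higher at B+7 than at MG in both genotypes, by 0.89 in AtJUB1-OX and by more in wild type.

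Of 9 transcription factor genes of the DREB, CBF, AREB and JERF groups, 0 passed 1.5-fold at B+7. The shares of all probe sets there were 3.53% higher and 6.13% lower. At MG 3 were higher and 1 was lower in AtJUB1-OX among these genes, beside 6.67% and 6.74% of all probe sets. CBF1 differed by -0.14 at B+7 and 0.90 at MG, DREB1 by -0.19 at B+7 and -1.21 at MG, and EREB, whose synonym is TSRF1, by 0.08 at B+7 and 1.35 at MG. EREB was dim, and its MG difference was 0 with the floor. LOC606712, whose synonym is TERF1, was 1.32 higher at B+7 than at MG in AtJUB1-OX and 1.53 higher in wild type.

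Of 9 other genes of the drought, salt and ABA response, 2 were lower in AtJUB1-OX at B+7, beside 6.13% of all probe sets. They were ER5 and NHX1, a vacuolar sodium and proton exchanger gene (-0.66). At MG 4 genes were higher and 2 lower in AtJUB1-OX, beside 6.67% and 6.74% of all probe sets. The lower ones were NHX1 (-1.34) and SOS2 (-0.69), a kinase gene of salt tolerance, and the higher ones were ER5, NP24-I, an osmotin-like gene (0.94), TSI-1, a stress-induced gene (2.63), and LE16 (1.29), a lipid transfer protein gene. SOS2 and LE16, dim and named outside the rule, were at 0 with the floor. B+7 minus MG for TSI-1 was -1.29 in AtJUB1-OX and 1.17 in wild type, opposite in sign as for TAS14, but its signal was dim and with the floor its wild type value was 0.28. At B+7 TSI-1 differed between the genotypes by 0.16 only.

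Compatible solutes such as proline and galactinol accumulate in the same stresses. Of 6 genes listed for such solutes and for sucrose, 1 passed 1.5-fold at B+7, beside 3.53% of all probe sets higher and 6.13% lower. It was the sucrose synthase gene LOC543961 (synonym sus2), with -1.19. The galactinol synthase gene GolS-1 differed by 0.02 at B+7 and 2.86 at MG, but its signals were so dim that the floor took the MG value to 0. The sucrose synthase gene sus3 differed by -0.13 at B+7 and 0.15 at MG, and the proline synthesis gene PRO1 by 0.36 at B+7 and -0.03 at MG. PRO1 was dim on all 4 arrays, between 3.39 and 3.79, below the floor of log2 7.34. PRO2 of the same list, named here outside the rule, had a mean signal above the median. It differed by 0.05 at B+7 and -0.12 at MG.

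**Figure D5:**
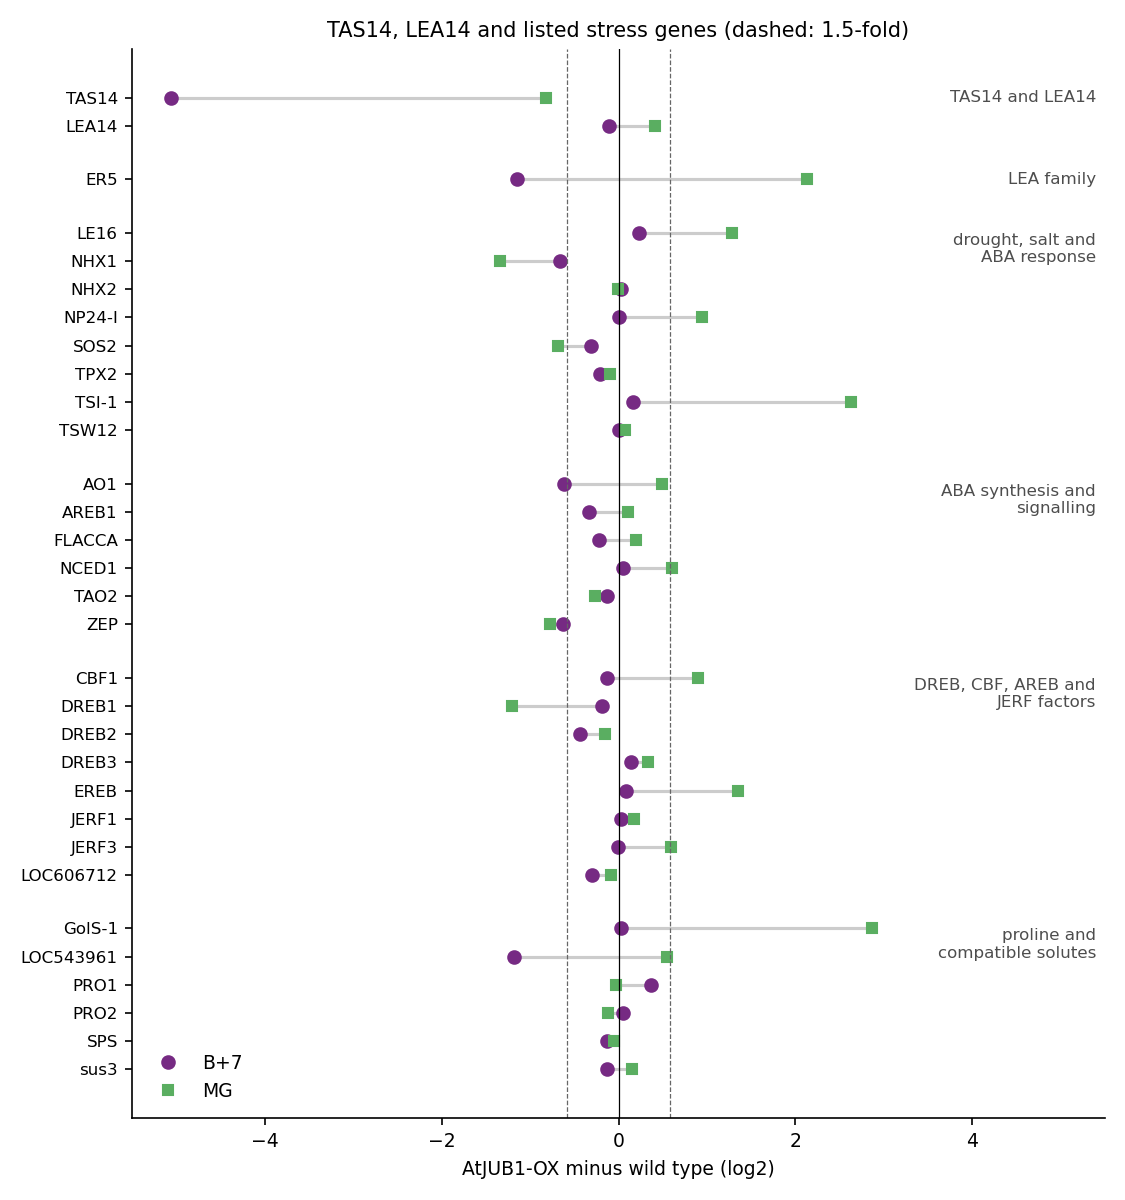
Log2 difference AtJUB1-OX minus wild type (horizontal axis) at B+7 (purple circles) and MG (green squares) for TAS14, LEA14 and the 29 other listed genes, grouped by list, with dashed lines at 1.5-fold. At B+7 the listed genes lie between -1.19 and 0.36 and TAS14 alone at -5.07; at MG they spread from -1.34 to 2.86 and TAS14 is at -0.82.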

How the data were processed

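The authors deposited 1 table of log2 expression values per probe set, already background-corrected, normalized and summarized, for 4 arrays. GCRMA and RMA appear in the submitters' notes, without version, role or order. Depth has no meaning for arrays, and their number limits the precision. Gene names came from the 2007 platform annotation, and 885 of 909 named probe sets matched the RefSeq gene table, used for names, chromosomes and neighbours. Differences of log2 values were taken as deposited, and the 1.5-fold cut-off is that of the study. The brightest probe set stands for a gene.

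Both genes and the lists were chosen with earlier results of these data known. Lists were matched by symbol or synonym. Named were all LEA genes, up to 4 genes per list with the largest difference, and the 5 named genes nearest to each of TAS14 and LEA14. After values were seen, TSI-1 was taken out of the LEA list, TPx1 and pip1 out of the drought list, and a profilin and gad2 out of the proline list, since each is another kind of gene. AREB1, GLB2, SOS2, LE16 and PRO2 were named outside the rule.

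Alternatives were centring on the median, quantile normalization, loess with a span of 0.3 (limma 3.58.1, R 4.3.3), a floor at the 25th percentile, a 2-fold cut-off, averaging a gene's probe sets, and probe sets above the median signal of 9.70. Counting was tested on simulated data. Python 3.11.15, numpy 2.4.6 and pandas 2.3.3 were used.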

Additional observations from a re-analysis of the deposited data

Results flagged for a closer look

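For TAS14, B+7 minus MG was -1.76 in AtJUB1-OX and 2.48 in wild type (log2), a difference between the genotypes of -4.24. For ER5, the gene beside LEA14, AtJUB1-OX minus wild type was -1.15 at B+7 and 2.13 at MG, a difference between the stages of -3.27. For TSI-1, B+7 minus MG was -1.29 in AtJUB1-OX and 1.17 in wild type, a difference of -2.46. Each drew attention because its values as deposited point in opposite directions past 1.5-fold. With the floor at the 25th percentile this no longer held for TAS14, at -0.22 in AtJUB1-OX, or for TSI-1, at 0.28 in wild type. With 1 array per condition the difference was not tested for any of these 3 genes.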

How the results depend on the processing

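Of the values of TAS14 and LEA14 under 5 alternatives, 47 moved by less than the spread between probe sets of a gene and stayed on their side of 1.5-fold, counting the mean over a gene's probe sets, which changes nothing where there is 1. The 3 others all belong to TAS14 with the floor at the 25th percentile, which raises only its AtJUB1-OX value at B+7: -3.53 for AtJUB1-OX minus wild type at B+7, -0.22 for B+7 minus MG in AtJUB1-OX and -2.71 for the difference of those changes. Under the other alternatives TAS14 lay between -5.11 and -4.97 at B+7 and between -2.03 and -1.70 for ripening in AtJUB1-OX. The medians of the lists moved by less than that spread under every alternative run. Counts of probe sets past the cut-off moved by more than 1.5 times in 20 cases and by less in 28. Most of the 20 came from the 2-fold cut-off and from keeping only probe sets above the median signal. Both of these can only lower a count, and the rest are the floor and loess counts given below. At 2-fold AtJUB1-OX had 123 probe sets higher and 239 lower at B+7, 310 and 219 at MG, and between the stages 791 higher and 1057 lower at B+7 in AtJUB1-OX and 660 and 856 in wild type. Above the median signal there were 60 and 183 at B+7, 250 and 176 at MG, and between the stages 655 and 653 in AtJUB1-OX and 574 and 487 in wild type. The floor left 179 higher and 362 lower at B+7 and 405 lower at MG, and loess left 1285 higher at B+7 than at MG in AtJUB1-OX. No paired analysis was possible because each condition has 1 array and the labels carry no replicate numbers. Single arrays, dim AtJUB1-OX signals of TAS14 and 1 probe set per gene limit what these values show.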
